A study of Mus musculus with 56 samples.

Results

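Amino acids that pass the glomerular filter are taken back by the proximal tubule through a set of membrane carriers, and the transcripts of 9 such carriers were followed in the kidney: Slc6a19, Slc6a18, Slc6a20b, Slc7a9, Slc3a1, Slc7a7, Slc7a8, Slc3a2 and Slc1a1. They were chosen by name, as the rows that the expression table of the series gives these genes, and they were 9 of its 17027 genes. All 9 had a mean of at least 1 TPM (transcript abundance per length) and were among the 13351 genes tested. Poly(A) RNA came from kidneys of female C57BL/6J mice aged 9 weeks, kept on a cycle of 12 h light and 12 h dark. For 7 days before sampling, food was offered either in the light (daytime-restricted feeding, DRF) or in the dark (nighttime-restricted feeding, NRF, the control regimen). The labels name no mutation, transgene or drug. Kidneys were collected at zeitgeber time (ZT, counted in hours from the onset of light) 0, 4, 8, 12, 16, 20 and 24, and each of the 14 groups of regimen and time held 4 mice. One NRF ZT24 column of the table bears a number that no sample label has, and it was placed in its group by the column name alone, without a replicate number. Each value below comes from whole kidney, so fewer cells of a type and less RNA per cell cannot be told apart.

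On the luminal side of the proximal tubule cell, sodium-coupled carriers of the SLC6 family bring in neutral amino acids and imino acids, an exchanger made of a light chain (Slc7a9) and a heavy chain (Slc3a1) brings in cystine and dibasic amino acids, and Slc1a1 brings in glutamate and aspartate. On the basolateral side, the light chains encoded by Slc7a7 and Slc7a8 pair with the CD98 heavy chain of Slc3a2 and pass amino acids on towards the blood. Human defects of these genes cause inherited losses of amino acids in urine, among them Hartnup disorder (SLC6A19), cystinuria (SLC3A1 and SLC7A9) and lysinuric protein intolerance (SLC7A7).

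Values are given as CPM, the reads of a gene scaled to the effective size of its library, and tests were made on log2(CPM + 1). Libraries held 25.4 to 28.1 M recovered reads, and the effective sizes were 24.8 to 28.9 M reads. A member had between 2460 reads (Slc7a7) and 33156 reads (Slc6a18) in a library. The summed level of 12 markers of the proximal tubule ranged from 12770 to 21790 CPM with a median of 18502 CPM, and its group means differed by no more than 1.11-fold. None of the 12 markers was at 0 in any library, so the tissue carried the segment that the carriers are named for. The sum stood lowest against its group in NRF ZT8 replicate 1 (12770 CPM) and NRF ZT16 replicate 2 (13711 CPM), which lay 0.42 below their group means on the log2 scale. Fat cell markers, with Cfd, Adipoq and Plin1 summed, were over 100 CPM in 7 libraries (6 of NRF and 1 of DRF) and reached 697 CPM in NRF ZT12 replicate 1. Group means of thick limb and distal tubule markers differed by up to 1.41-fold, of collecting duct by 2.02-fold, of podocyte by 1.38-fold, of endothelium by 1.57-fold, of immune cells by 2.11-fold, of liver by 2.41-fold and of blood by 3.93-fold, and the 2 adrenal markers in the table summed to at most 7.82 CPM. Between regimens, 2 of 4 immune markers had a lower mesor under DRF, and 3 of 5 collecting duct markers differed. Their part in the results was not tested, but values without the libraries named here, and with the proximal tubule sum as a covariate, are given beside the counts they change.

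Per unit of transcript length, the carriers covered a wide range of levels. Slc3a1 was the most abundant, at 267 ± 30.2 RPKM (CPM per kilobase of transcript, SD over 56 libraries), although its length was assumed from the annotation and not recovered from the steps of the data. Its CPM, its RPKM and its rank all rest on that length. Slc6a18 followed at 216 ± 33.4 RPKM. Slc3a2 (80.3 ± 15.1 RPKM) and Slc7a8 (79.1 ± 19.3 RPKM) came next and did not differ beyond their spread, since Slc3a2 was the higher in 33 of 56 libraries. Slc6a19 (53.5 ± 27.3 RPKM), Slc1a1 (52.7 ± 6.43), Slc7a9 (51.2 ± 10.5) and Slc7a7 (50.0 ± 12.4) were likewise within their spread of one another. Slc6a20b was lowest at 30.4 ± 3.49 RPKM, and Slc7a7 was above it in 56 of 56 libraries. The spread of Slc6a19 relative to its level was the widest, and its 14 group means ranged over 3.87-fold, against 1.25-fold for Slc6a20b and 1.26-fold for Slc3a1.

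A cosine of 24 h was fitted in each regimen to ask which carriers kept a diurnal rhythm when food was moved into the light. Under NRF, 5 of the 9 carriers were rhythmic with an adjusted p under 0.05 (limma, Benjamini-Hochberg over all genes), where 54.5% of all genes were. These were Slc6a19, Slc7a9, Slc7a7, Slc7a8 and Slc3a2. Under DRF, 3 of 9 were rhythmic (Slc6a18, Slc6a20b and Slc3a1), where 40% of all genes were. No carrier was called under both regimens, nor had any an unadjusted p under 0.05 in both, whereas 26.3% of all genes were called in both. Slc1a1 was called under neither. The absence of a shared call was not kept in all alternatives: Slc3a1 was shared without replicate 1, and 4 carriers were shared with the proximal tubule sum as a covariate. The share of all genes called under both regimens was not computed for these alternatives. The median amplitude of the 9 carriers was 0.32 on the log2 scale under NRF, against 0.13 over all genes, and was 0.11 in both sets under DRF. The interaction of regimen with the cosine was past the threshold for 5 of 9 carriers, the same 5 that were rhythmic under NRF, where 49.4% of all genes passed. Of these, Slc7a9 and Slc7a8 kept the call in 17 of 17 alternatives. With the covariate 6 passed (54.7% of all genes), Slc6a20b being the one added (adjusted p = 0.000651).

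**Figure D1:**
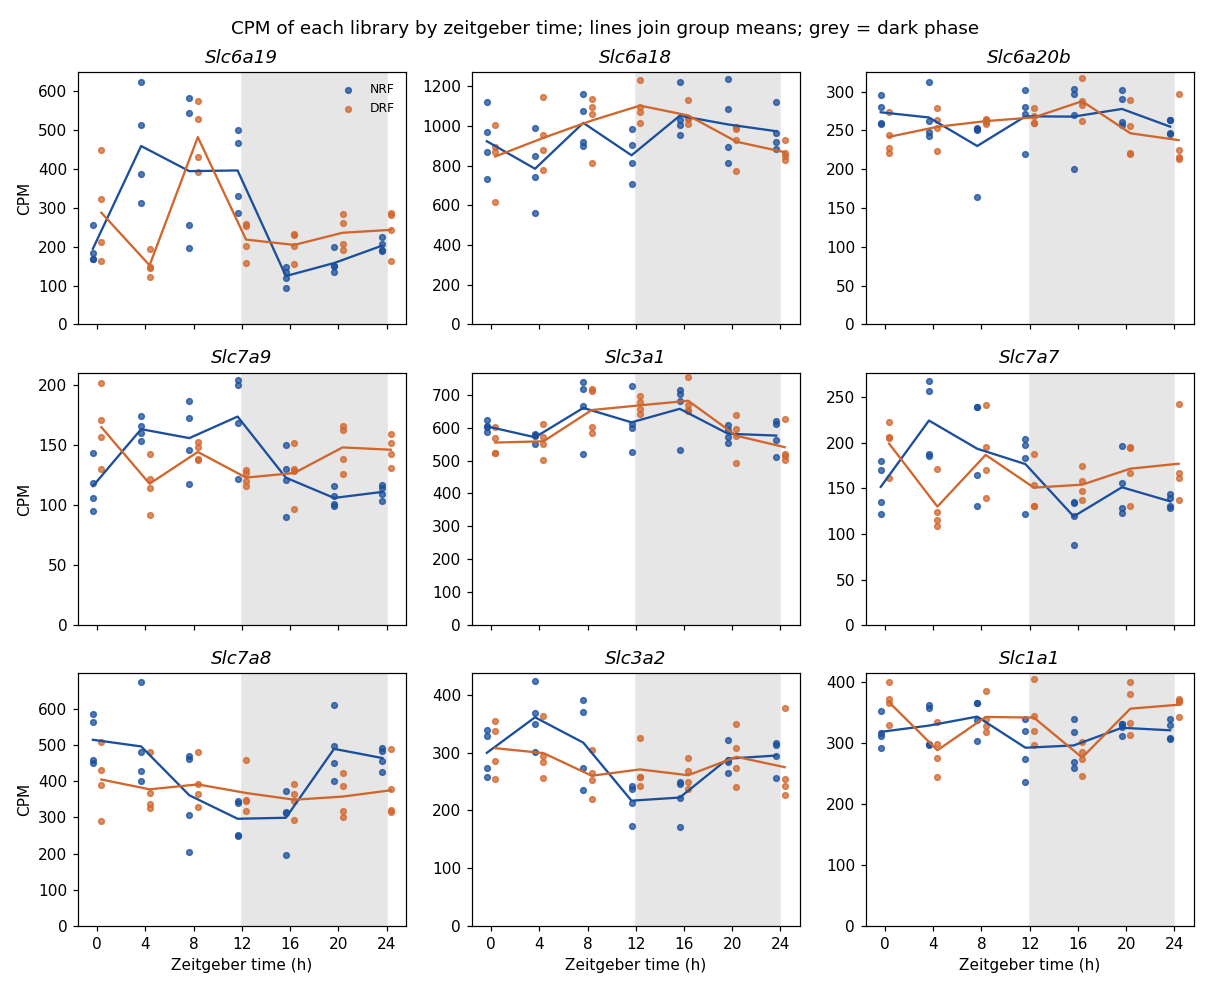
Level of each of the 9 carriers (CPM, y axis) against zeitgeber time (hours, x axis; grey, dark phase) under NRF (blue) and DRF (orange), with a point for every library and a line through the mean of 4 mice. Slc6a19 has a broad high phase from ZT4 to ZT12 under NRF. Its highest mean under DRF is at ZT8, where the mice overlap those at ZT0.

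The mesor, the mean over clock time, did not pass the test between regimens for any of the 9 carriers, where 10.3% of all genes passed. No carrier had an unadjusted p under 0.05, and a fit with voom weights called none. The estimates (DRF minus NRF) lay between -0.07 ± 0.08 for Slc7a8 and 0.07 ± 0.06 for Slc6a18 on the log2 scale (SE). A mesor that did not pass is not thereby shown to be equal. The differences between regimens described next were taken at given times of day and were of both signs.

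Slc6a19 encodes B0AT1, the main sodium-coupled carrier of neutral amino acids in the brush border (minus strand, chr13:73679745-73704865 in GRCm38). Under NRF its level was high in the light, with group means of 459 CPM at ZT4, 394 CPM at ZT8 and 396 CPM at ZT12. It was 124 CPM at ZT16, 158 CPM at ZT20, 195 CPM at ZT0 and 203 CPM at ZT24. The fitted cosine had an amplitude of 0.90 ± 0.13 on the log2 scale (SE), a peak at ZT 7.01 ± 0.49 h and a peak-to-trough ratio of 3.51 (adjusted p = 6.65e-06). The 4 mice at ZT16 were at 148, 94.7, 120 and 135 CPM and those at ZT20 at 149, 198, 134 and 149 CPM. All 8 of these lay below every mouse at ZT4 (512, 312, 623 and 388 CPM) and at ZT12 (287, 467, 499 and 330 CPM). At ZT8 the 4 mice split, with 197 and 255 CPM in replicates 1 and 3 and 582 and 543 CPM in replicates 2 and 4. Replicate 1 of that group was also the library lowest in proximal tubule markers.

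Under DRF the high phase of Slc6a19 was narrow. The 4 mice at ZT8 were at 575, 431, 528 and 393 CPM (mean 482 CPM). The other 6 time points had means of 152 to 287 CPM, with 152 CPM at ZT4 and 218 CPM at ZT12 on either side. At ZT0 the mice spread from 164 to 449 CPM, and that group overlapped the one at ZT8. The 24-h cosine did not pass the test (amplitude 0.21 ± 0.15, adjusted p = 0.492), and adding a 12-h component gave an amplitude of 0.54 for that component (adjusted p = 0.00591). That call was lost without replicate 1, at an amplitude of 0.44 and an adjusted p of 0.123. The interaction of regimen and cosine had an adjusted p of 0.0139, which rose to 0.0673 without replicate 2 and 0.0907 without replicate 4.

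At the same ZT, the largest difference of Slc6a19 was at ZT4. The DRF mice were at 144, 193, 148 and 123 CPM, against 312 to 623 CPM in the NRF mice, so that the groups did not overlap and the NRF mean was 3.02-fold higher. On the log2 scale it came to -1.56 ± 0.27 (SE, adjusted p = 1.14e-05) and was called in 16 of 16 alternatives. At ZT12 the DRF mice were at 259, 202, 159 and 254 CPM, all below the NRF mice, with a difference of -0.85 ± 0.27 (adjusted p = 0.0161) that was lost without replicate 2 and without replicate 3. At ZT16 the direction was opposite and the groups did not overlap, but the difference of 0.71 ± 0.27 did not pass (adjusted p = 0.0916).

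Slc6a18, which lies next to Slc6a19 (chr13:73661752-73678023, minus strand) and encodes B0AT3, another neutral amino acid carrier, had another course. Under DRF it was rhythmic with a peak at ZT 12.1 ± 1.03 h and an amplitude of 0.18 ± 0.04 (adjusted p = 0.00592, and 0.0511 without replicate 2). Its 4 DRF mice at ZT12 were at 1014, 1094, 1229 and 1070 CPM, and those at ZT24 at 849, 931, 861 and 828 CPM, without overlap. Under NRF it ranged from 784 CPM at ZT4 to 1051 CPM at ZT16 in group means, and the cosine did not pass (0.12 ± 0.07, adjusted p = 0.291). At ZT12 every DRF mouse was above every NRF mouse (705, 905, 814 and 982 CPM), with a difference of 0.38 ± 0.15 that missed the threshold at an adjusted p of 0.0537. It was past the threshold with the replicate block (adjusted p = 0.0446), without replicate 4 (0.0495), in the deposited values (0.0392) and with the proximal tubule covariate (0.0441). The regimen interaction did not pass (adjusted p = 0.0845), so the rhythm under DRF was not shown to differ from the course under NRF.

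Slc6a20b (chr9:123590800-123632565, minus strand), a mouse counterpart of the human imino acid carrier gene SLC6A20, varied least. Its 14 group means lay between 230 CPM (NRF ZT8) and 288 CPM (DRF ZT16). Its rhythm under DRF (amplitude 0.11 ± 0.03, peak at ZT 12.8 h, adjusted p = 0.0452) was lost in 8 of 17 alternatives, and 1 of these was the replicate block. Its paralog Slc6a20a is closely similar in sequence, so reads may have been split between the genes. Slc6a20a itself averaged 17.2 CPM and was rhythmic in both regimens, with amplitudes of 0.51 under NRF and 0.40 under DRF and peaks at ZT 11.7 h and ZT 12.7 h (interaction adjusted p = 0.176).

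The cystine and dibasic amino acid exchanger is built from the light chain of Slc7a9 (chr7:35448796-35466036, plus strand) and the heavy chain rBAT of Slc3a1 (chr17:85028376-85064236, plus strand). The transcripts of these partners did not run in parallel. Slc7a9 was rhythmic under NRF, with an amplitude of 0.36 ± 0.06 and a peak at ZT 8.60 ± 0.65 h (adjusted p = 0.000103). Its level at ZT12 (122, 200, 204 and 169 CPM) was the highest group mean, at 174 CPM, and that at ZT20 (99.5, 116, 101 and 107 CPM) the lowest, at 106 CPM. Slc3a1 did not pass under NRF (0.07 ± 0.04, adjusted p = 0.227). Under DRF it was Slc3a1 that passed, with an amplitude of 0.17 ± 0.03 and a peak at ZT 12.7 ± 0.76 h (adjusted p = 0.000366) that was called in 17 of 17 alternatives. The interaction for Slc3a1 did not pass (adjusted p = 0.181), so its courses were not shown to differ between regimens, and without replicate 1 it was called under NRF too (0.12, adjusted p = 0.0448). Its DRF mice at ZT16 (649, 670, 754 and 654 CPM) were all above those at ZT0 (523, 603, 524 and 568 CPM) and at ZT24 (521, 502, 514 and 625 CPM).

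Slc7a9 was the carrier with the strongest interaction of regimen and cosine (adjusted p = 5.92e-05). Its difference between regimens turned over through the day. It was lower under DRF at ZT4, where the DRF mice were at 115, 143, 122 and 91.9 CPM and the NRF mice at 166, 160, 174 and 153 CPM without overlap (-0.48 ± 0.15, adjusted p = 0.0102). It was lower again at ZT12 (-0.47, adjusted p = 0.0172), where the groups overlapped. In the late dark and at lights on it was higher under DRF. At ZT20 the DRF mice were at 162, 166, 139 and 125 CPM and the NRF mice at 99.5, 116, 101 and 107 CPM, again without overlap (0.47, adjusted p = 0.0179). At ZT0 the difference was 0.51 (adjusted p = 0.011), and at ZT24 it was 0.39 with groups that did not overlap, at an adjusted p of 0.0591, which passed without the 7 libraries high in fat markers (0.023), without the 2 libraries lowest in proximal tubule markers (0.0341), with TPM scaling (0.0432) and with the covariate (0.0002). Each of the 4 calls was lost when 1 or another replicate number was left out (replicate 2 at ZT0, 3 or 4 at ZT4, 2 or 3 at ZT12, 1 or 3 at ZT20). Slc3a1 differed by no more than 0.13 on the log2 scale at any of the 7 time points, with a standard error of 0.10.

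The ratio of Slc7a9 to Slc3a1 within a library was rhythmic in both regimens (permutation tests of 100000 resamples, adjusted over 12 ratio tests). Apart from the pseudocount, it is free of the scaling of libraries only if the assumed length of Slc3a1 is right. Its size rests on that length too, and both calls were kept with another Slc3a1 length. Under NRF the 24-h cosine took 53.8% of the variance of the log2 ratio, with an amplitude of 0.32 and a peak at ZT 7.88 h (adjusted p = 0.000288). Under DRF it took 54.7%, with an amplitude of 0.29 and a peak at ZT 23.9 h (adjusted p = 0.00021). Group means of the log2 ratio under NRF were -1.80 at ZT4, -2.08 at ZT8 and -1.84 at ZT12. The fitted NRF peak thus fell near a mean below those on either side. The cosines of the regimens differed by 0.53 (permutation test of regimen labels within time points, adjusted p = 4e-05 over 4 ratios), a test added after the ratios had been seen. The mean ratio did not pass between regimens (0.07, adjusted p = 0.519).

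The bases before RefSeq start sites of these partners and of Slc6a19 are shown, since these are the carriers whose time courses are set side by side above (GRCm38.p6, 250 bases before the start site, 5′ to 3′ on the gene's strand). The RefSeq starts are not the ends of the loci printed above, which are from GENCODE. That of Slc6a19 lies 12229 bases inside its locus, that of Slc7a9 296 bases inside and that of Slc3a1 29 bases outside. Slc7a9 has a second RefSeq start, 383 bases inside, whose window held none of the motifs searched and is not shown. Which starts the kidney uses was not tested. Capitals mark the motif CAAAGTC, the core of a site of the HNF4 type, which proximal tubule cells use widely.
Slc3a1 (chr17:85028097-85028346, plus strand): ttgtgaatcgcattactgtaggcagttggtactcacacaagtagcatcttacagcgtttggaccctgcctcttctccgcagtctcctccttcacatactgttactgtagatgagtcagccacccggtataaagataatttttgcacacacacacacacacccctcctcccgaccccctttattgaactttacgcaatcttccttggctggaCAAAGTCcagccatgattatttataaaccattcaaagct
Slc7a9 (chr7:35448842-35449091, plus strand): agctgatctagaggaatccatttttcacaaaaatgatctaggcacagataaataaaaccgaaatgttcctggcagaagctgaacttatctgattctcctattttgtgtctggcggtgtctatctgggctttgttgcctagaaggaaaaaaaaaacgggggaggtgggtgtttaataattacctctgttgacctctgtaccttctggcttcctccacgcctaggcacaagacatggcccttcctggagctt
Slc6a19 (chr13:73692637-73692886, minus strand): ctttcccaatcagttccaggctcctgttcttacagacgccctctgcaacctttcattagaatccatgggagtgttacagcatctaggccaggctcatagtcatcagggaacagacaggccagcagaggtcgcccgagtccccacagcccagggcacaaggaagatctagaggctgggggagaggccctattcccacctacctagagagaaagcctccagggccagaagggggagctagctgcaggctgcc
All 3 motifs were searched on both strands of windows of 300 bases (250 before and 50 after the start), which were found for 8 of the 9 carriers. CAAAGTC (or GACTTTG) was in 4.44% of 32851 windows of all genes, GTTAAT (or ATTAAC), one arm of an HNF1 site, in 7.1%, and the E-box CACGTG in 7.15%. The Slc3a1 window held CAAAGTC from 39 bases before the start and ATTAAC from 1 base after it, separate windows of Slc7a7 held GACTTTG and GTTAAT, and the window of Slc6a19 and both of Slc7a9 held none of the 3. No carrier's window held CACGTG. These matches are a description of the letters in the windows.

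On the basolateral side, Slc7a7 (y+LAT1, an exchanger of cationic for neutral amino acids, chr14:54369442-54417780, minus strand) was rhythmic under NRF with an amplitude of 0.36 ± 0.09 and a peak at ZT 6.41 ± 0.82 h (adjusted p = 0.00374). Under DRF its amplitude was 0.09 ± 0.08 (adjusted p = 0.595), and the interaction had an adjusted p of 0.0148 that was lost without replicate 3 and without replicate 4. At ZT4 the NRF mice were at 268, 185, 257 and 187 CPM and the DRF mice at 115, 171, 124 and 109 CPM. These groups did not overlap, and the NRF mean was 1.73-fold higher (-0.79 ± 0.20, adjusted p = 0.0017). Without replicate 3 the adjusted p at ZT4 was 0.0535.

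Slc7a8 (LAT2, an exchanger of neutral amino acids, chr14:54722209-54781946, minus strand) peaked at another time under NRF, at ZT 0.61 ± 0.79 h with an amplitude of 0.43 ± 0.08 (adjusted p = 0.000202). The NRF mice at ZT0 were at 460, 585, 563 and 451 CPM and those at ZT12 at 252, 339, 345 and 249 CPM. Every mouse at ZT0 was above every mouse at ZT12. Under DRF its 7 group means stayed between 349 and 405 CPM, with an amplitude of 0.07 ± 0.06 (adjusted p = 0.603), and the interaction had an adjusted p of 0.00336. At single time points no difference passed, and the largest was -0.45 ± 0.20 at ZT20 (adjusted p = 0.11).

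Slc3a2, the CD98 heavy chain that both light chains need to reach the membrane (chr19:8706882-8723369, minus strand), peaked between them under NRF, at ZT 3.13 ± 0.73 h, with an amplitude of 0.32 ± 0.06 (adjusted p = 0.000322). The NRF mice at ZT4 were at 424, 350, 369 and 301 CPM and those at ZT12 at 173, 238, 243 and 213 CPM, without overlap. Under DRF its amplitude was 0.08 ± 0.05 (adjusted p = 0.4). The interaction (adjusted p = 0.0298) was lost when any of replicates 1 to 4 was left out. Slc3a2 also serves amino acid carriers of other cells, which the whole kidney does not separate.

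The balance of light and heavy chain transcripts on this side turned with time under NRF. The cosine of Slc7a7 to Slc3a2 took 54.4% of the variance with a peak at ZT 10.3 h (amplitude 0.28, permutation test, adjusted p = 0.00021), and that of Slc7a8 to Slc3a2 took 57% with a peak at ZT 21.4 h (amplitude 0.26, adjusted p = 0.00012). Group means of the log2 ratio of Slc7a7 to Slc3a2 went from -1.11 ± 0.18 at ZT24 to -0.31 ± 0.19 at ZT12 (SD, n = 4). Under DRF these ratios did not pass (adjusted p = 0.774 and 0.0931), although Slc7a8 to Slc3a2 did so without replicate 2 (adjusted p = 0.0287). The mean of that ratio did not pass between regimens (-0.10, adjusted permutation p = 0.0931), but did without the 2 libraries lowest in proximal tubule markers (-0.13, 0.0142). Under DRF the ratio of Slc7a7 to Slc3a2 was lowest at ZT4 (-1.21 ± 0.11) and highest at ZT8 (-0.50 ± 0.14), a course that a 24-h cosine does not follow. The cosines differed between the regimens in both ratios, with adjusted p-values of 0.00167 and 6e-05.

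**Figure D2:**
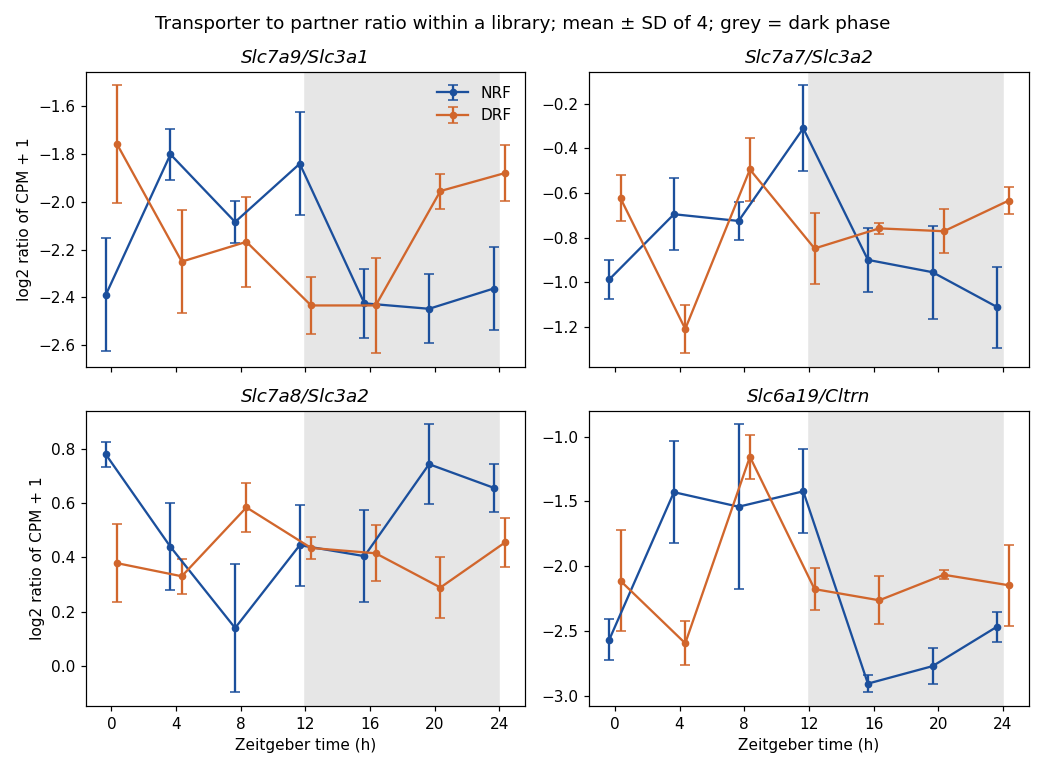
Log2 ratio of CPM + 1 between a carrier and its partner within a library (y axis) against zeitgeber time (hours, x axis; grey, dark phase), as mean ± SD of 4 mice under NRF (blue) and DRF (orange). Under NRF the means of Slc7a9 to Slc3a1 are highest at ZT4 and ZT12, with a lower mean at ZT8 between them. Under DRF they are highest at ZT0 and ZT24.

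Cltrn encodes collectrin, the partner that B0AT1 needs to reach the brush border. The ratio of Slc6a19 to Cltrn was rhythmic under NRF, where the cosine took 71.7% of the variance with an amplitude of 0.85 and a peak at ZT 7.59 h (permutation test, adjusted p = 0.00012). Under DRF it took 12.9% (adjusted p = 0.27), and the cosines differed between the regimens (adjusted p = 0.00167). Group means under DRF were -1.16 ± 0.17 at ZT8 and between -2.60 and -2.07 at the other 6 time points. Cltrn alone had an amplitude of 0.14 under NRF (adjusted p = 0.0267) and 0.05 under DRF (adjusted p = 0.706), so most of the swing of the ratio was that of Slc6a19.

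Slc1a1 encodes EAAT3, the luminal carrier of glutamate and aspartate (chr19:28835049-28913960, plus strand). It passed the 24-h test in neither regimen, at an amplitude of 0.08 in both. With TPM scaling it was called under NRF (0.13, adjusted p = 0.00888), as it was with the proximal tubule covariate (0.10, adjusted p = 0.0497). Under DRF a 12-h component of 0.21 passed (adjusted p = 0.000477) and was kept in 17 of 17 alternatives. Its DRF mice were lowest at ZT4 (298, 275, 335 and 244 CPM) and ZT16 (245, 273, 301 and 284 CPM). They were highest at ZT0 (365, 329, 372 and 399 CPM), ZT20 (381, 399, 332 and 312 CPM) and ZT24 (341, 372, 369 and 367 CPM), and all mice at ZT16 were below all mice at those 3 time points. Between its lows, Slc1a1 had means of 342 CPM at ZT8 and 341 CPM at ZT12. Slc6a19, by contrast, had a mean of 482 CPM at ZT8 and of 236 CPM at ZT20, 12 h later. A 12-h component passed for 2 of 9 carriers under DRF, Slc6a19 and Slc1a1, where 30.7% of all genes passed. Under NRF it passed for none (1.2% of all genes), with 1 carrier at an unadjusted p under 0.05 and none called with voom weights. The count under DRF was 4 without the 7 libraries high in fat markers, where the share of all genes was not computed.

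**Figure D3:**
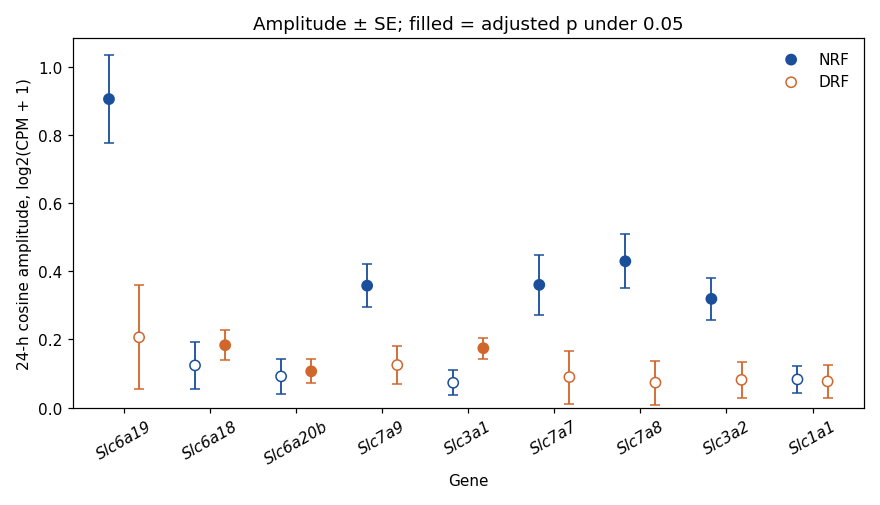
Amplitude of the fitted 24-h cosine on the log2(CPM + 1) scale (y axis, ± SE) for the 9 carriers (x axis) under NRF (blue) and DRF (orange), with filled points for an adjusted p under 0.05. Slc6a19 under NRF stands at 0.90, and no carrier is filled in both regimens.

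Over the 7 time points and 9 carriers, 7 of 63 differences between regimens passed at the same ZT. The share of all genes that passed was 7.44% to 31.8% by time point, with a mean of 20.3%. By time point, 1 carrier passed at ZT0 (21% of all genes), 3 at ZT4 (31.8%), 2 at ZT12 (23.9%) and 1 at ZT20 (21.2%). None passed at ZT8 (19.2%), ZT16 (7.44%) or ZT24 (17.4%), where 0, 1 and 1 carriers had an unadjusted p under 0.05 and voom called none. All 7 belonged to Slc6a19, Slc7a9 and Slc7a7. Without the 7 libraries high in fat markers, and likewise without the 2 lowest in proximal tubule markers, 8 of 63 passed, Slc7a9 at ZT24 being added (means of 18.2% and 20.6% of all genes). Without replicate 3, 2 of 63 passed, a fit for which the share of all genes was not computed. With the proximal tubule sum as a covariate 23 of 63 passed, where 12.6% to 37.9% of all genes did (mean 25.7%).

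Because food came 12 h later under NRF, each DRF group was also set against the NRF group 12 h away on the clock, which matches the time from the meal. These 6 comparisons use the same libraries as those at the same ZT. Here 11 of 54 differences passed, where 11.9% to 33.1% of all genes did (mean 18.6%). Most, 6 of the 11, came from DRF ZT16 against NRF ZT4 (33.1% of all genes), both 4 h into the phase without food. There Slc6a19 (-1.13 ± 0.27), Slc7a9 (-0.38), Slc7a7 (-0.52) and Slc3a2 (-0.46) were lower and Slc6a18 (0.45) and Slc3a1 (0.25) higher under DRF. Of all genes, 16.1% were lower and 17% higher there. Of these 6 calls that of Slc6a19 held in 16 of 16 alternatives, each other was lost in 3 to 6 of them, and those of Slc6a18 and Slc3a1 were lost with TPM scaling.

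At DRF ZT8 against NRF ZT20 (16.6% of all genes), Slc6a19 was higher under DRF by 1.60 ± 0.27 (adjusted p = 1.94e-05), with DRF mice at 393 to 575 CPM and NRF mice at 134 to 198 CPM. Slc7a9 was higher there by 0.44 (adjusted p = 0.0319), a call that was lost when any 1 of replicates 1 to 4 was left out (highest adjusted p = 0.128). Slc6a19 thus differed at matched ZT and at matched time from the meal, and its calls at both meal-matched pairs held in 16 of 16 alternatives. Slc3a2 was higher under DRF at DRF ZT4 against NRF ZT16 (0.43, 18.4% of all genes), and Slc3a2 (0.41) and Slc1a1 (0.33) were higher at DRF ZT0 and ZT24 against NRF ZT12 (11.9% of all genes). These last 3 were lost without the 7 libraries high in fat markers, and in other alternatives. Slc3a2 at DRF ZT4 against NRF ZT16 was lost in 6 of 16, among them without replicate 2, where it was 0.22 (adjusted p = 0.512), without replicate 3 and without the 2 libraries lowest in proximal tubule markers. Slc3a2 against NRF ZT12 was lost without any 1 of replicates 1 to 4, and Slc1a1 without replicate 1 or 3. None passed at DRF ZT12 against NRF ZT0 and ZT24 (17%) or at DRF ZT20 against NRF ZT8 (14.4%), where 2 and 1 carriers had an unadjusted p under 0.05 and voom called none. Without the 2 libraries lowest in proximal tubule markers, 17 of 54 passed, where 10.9% to 34.1% of all genes did (mean 18.4%), and with the covariate 23 of 54, where 18.5% to 40.2% did (mean 25.3%).

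**Figure D4:**
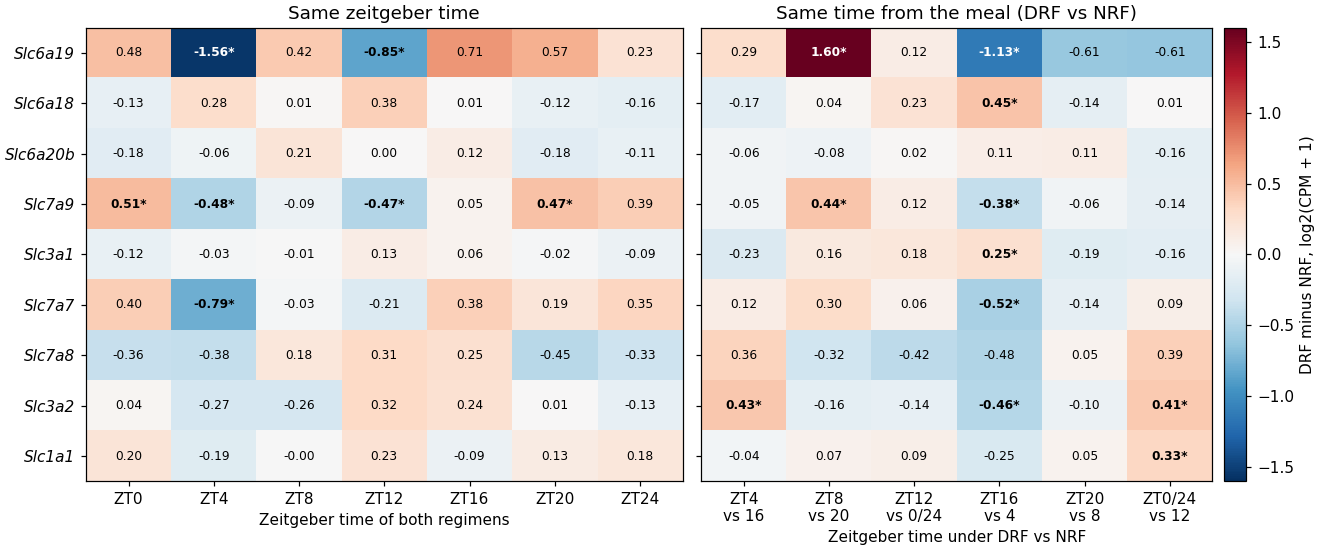
Difference between regimens (DRF minus NRF, log2(CPM + 1), colour and number) for each carrier (rows) at the same zeitgeber time (left) and at the same time from the meal (right), with an asterisk for an adjusted p under 0.05. The largest are those of Slc6a19, -1.56 at ZT4 and 1.60 at DRF ZT8 against NRF ZT20.

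The ZT24 mice repeated the clock time of the ZT0 mice in other animals. No carrier passed between them, under NRF (0.719% of all genes) or under DRF (0% of all genes), with none at an unadjusted p under 0.05 and none called with voom weights. Estimates lay between -0.19 and 0.09 on the log2 scale.

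The 14 groups of each carrier were ordered by their mean level, which by its making sets similar groups side by side. How such an order looks over all genes was not computed. Of the 13 pairs of neighbours in that order, the gap was larger than the larger of both SDs in 1 pair for Slc3a1 and 1 for Slc3a2 and in none for the other 7 carriers, and no neighbouring pair was free of overlap. For Slc6a19 the order began with DRF ZT8, NRF ZT4, NRF ZT12 and NRF ZT8 and ended with NRF ZT20, DRF ZT4 and NRF ZT16. After NRF ZT8 (394 CPM, SD 196 CPM) it stepped down to DRF ZT0 (287 CPM, SD 127 CPM). For Slc7a9 and Slc7a7 it began with NRF ZT12 and NRF ZT4, each followed by DRF ZT0. Over the 14 group means, Pearson's r was 0.87 between Slc6a19 and Slc7a7, 0.79 between Slc6a19 and Slc7a9 and 0.82 between Slc7a7 and Slc7a9, while it was -0.11 between the partners Slc7a9 and Slc3a1. It was 0.74 between Slc6a18 and Slc3a1 and 0.73 between Slc7a8 and Slc3a2. These values describe group means of the same libraries.

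Among 8785 genes with a mean of at least 10 TPM, the genes whose 14 group means were most like a carrier's were named by Pearson's r. Each r is a maximum picked from that many genes and was not tested, so its height is not read as a link between genes. For Slc6a19 they were Slc25a36, Sh3yl1 and Slc35f3 (each 0.93), and Slc35f3 (0.91) was also among those of Slc7a7, after Rab3ip (0.92). For Slc7a9 they were Qars, the glutaminyl-tRNA synthetase (0.96), Dcaf8 (0.96) and Inpp5k (0.94). For Slc7a8 they were Fcgr2b (0.97), Ptprk (0.93) and Col18a1 (0.93), and for Slc3a2 Anp32a (0.91) and Ddc, the aromatic amino acid decarboxylase (0.85). Gclm, a subunit of the enzyme that starts glutathione synthesis, was most like Slc6a18 (0.91), Abca13 most like Slc3a1 (0.92) and Limch1 most like Slc6a20b (0.88).

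Other amino acid carriers were taken from a list, and their counts stand beside 54.5% of all genes rhythmic under NRF, 40% under DRF, 49.4% with an interaction and 10.3% with a mesor call. With so few genes in a list, none of these counts is read as particular to it. Of 6 further basolateral carriers, all tested, 3 were rhythmic under NRF, 3 under DRF and 4 passed the interaction. Slc16a10, a carrier of aromatic amino acids, peaked at ZT 23.2 h under NRF with an amplitude of 0.39 and did not pass under DRF (0.17, interaction adjusted p = 2e-06). Slc38a3, a glutamine carrier, had amplitudes of 0.44 under NRF (peak at ZT 8.71 h) and 0.25 under DRF (peak at ZT 1.73 h, interaction adjusted p = 0.00104), and its mesor was higher under DRF by 0.25 (adjusted p = 0.0307). The other calls were Slc43a2 and Slc6a13.

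Of 9 further luminal carriers, 8 were tested, and 3 were rhythmic under NRF, 4 under DRF and 2 passed the interaction (Slc36a1, a proton-coupled carrier, and Slc1a5, a carrier of neutral amino acids). Of 11 carriers of other sites, 10 were tested, and 7, 6 and 6 passed in these tests. Of 7 partners and peptidases of the brush border, 3 were rhythmic under NRF, 2 under DRF and 0 passed the interaction in limma. Without adjustment 1 was under 0.05, that of Dpep1, a dipeptidase, whose adjusted p in limma was 0.0791. Of the 11 tested proximal tubule markers, 5 were rhythmic under NRF, 3 under DRF and 6 passed the interaction. Mesor calls were 1 of 6 for the basolateral list, 1 of 10 for the other sites (Slc38a10, -0.07, adjusted p = 0.0166) and 0 of 8 for the luminal list and 0 of 7 for the partners.

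Mice of 1 group differed in most carriers together. After removing group means, 27 of 36 pairs of carriers correlated over the 56 libraries past the threshold, all with r above 0 and up to 0.92 (permutation within groups, 54 relations adjusted together). The share among pairs of all genes was not computed, so this count is not read as particular to the carriers. For Slc7a8 and Slc3a2, Pearson's r was 0.92 and Spearman's rho 0.91 (adjusted permutation p = 2.5e-05 and 2.8e-05, which rest on the smallest p of 1e-05 that the resamples can give). It was 0.91 without the 2 libraries farthest out, 0.92 within NRF and 0.93 within DRF. For Slc7a7 and Slc3a2 r was 0.89 (rho 0.87, same adjusted permutation p, 0.87 without the 2 farthest). For Slc7a9 and Slc3a1 r was lower, at 0.61 (rho 0.46, adjusted permutation p = 0.000279 and 0.00398, 0.52 without the 2 farthest, 0.71 within NRF and 0.47 within DRF).

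The same deviations followed the summed proximal tubule markers of the library in 8 of 9 carriers. Pearson's r was 0.91 for Slc6a20b, 0.89 for Slc7a8, 0.87 for Slc7a9 and Slc3a2, 0.78 for Slc7a7, 0.75 for Slc6a19, 0.67 for Slc3a1 and 0.43 for Slc1a1. Spearman's rho was 0.88, 0.88, 0.83, 0.87, 0.74, 0.73, 0.55 and 0.39 in that order. Adjusted permutation p-values ran from 2.5e-05 to 0.0104 for r and from 2.8e-05 to 0.0221 for rho, and r without the 2 farthest libraries was 0.44 to 0.87. For Slc1a1 r was 0.61 within NRF and 0.22 within DRF. Slc6a18 did not follow the sum (r = -0.07, rho = -0.14, adjusted permutation p = 0.669 and 0.402). It rose instead with the markers of thick limb and distal tubule (r = 0.47, rho = 0.47, adjusted permutation p = 0.00478 and 0.00322, 0.47 without the 2 farthest, 0.52 within NRF and 0.40 within DRF), where Slc6a19, Slc6a20b, Slc7a9, Slc7a7, Slc7a8 and Slc3a2 had r between -0.40 and -0.62 (rho -0.37 to -0.61, adjusted permutation p from 6.5e-05 to 0.0163 for r and from 4.7e-05 to 0.0201 for rho, -0.33 to -0.58 without the 2 farthest). All values of a library share its scaling and the piece of kidney that was taken. How many of all genes follow these marker sums was not computed.

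With the summed markers as a covariate, an alternative chosen after the data had been seen, more differences passed. The 24-h rhythm passed for 7 carriers under NRF (60.7% of all genes) and 6 under DRF (46.1%). Slc7a9, Slc7a8 and Slc3a2 were those added under DRF, with amplitudes of 0.17, 0.11 and 0.13. Slc7a8, which had no call at a single time point, was then lower under DRF at ZT0 (-0.42, where 26.8% of all genes passed), ZT4 (-0.37, 37.9%), ZT20 (-0.32, 25.4%) and ZT24 (-0.35, 23.2%) and higher at ZT12 (0.32, 30.4%). The mesor passed for none of the 9 carriers in this fit (16.5% of all genes).

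**Figure D5:**
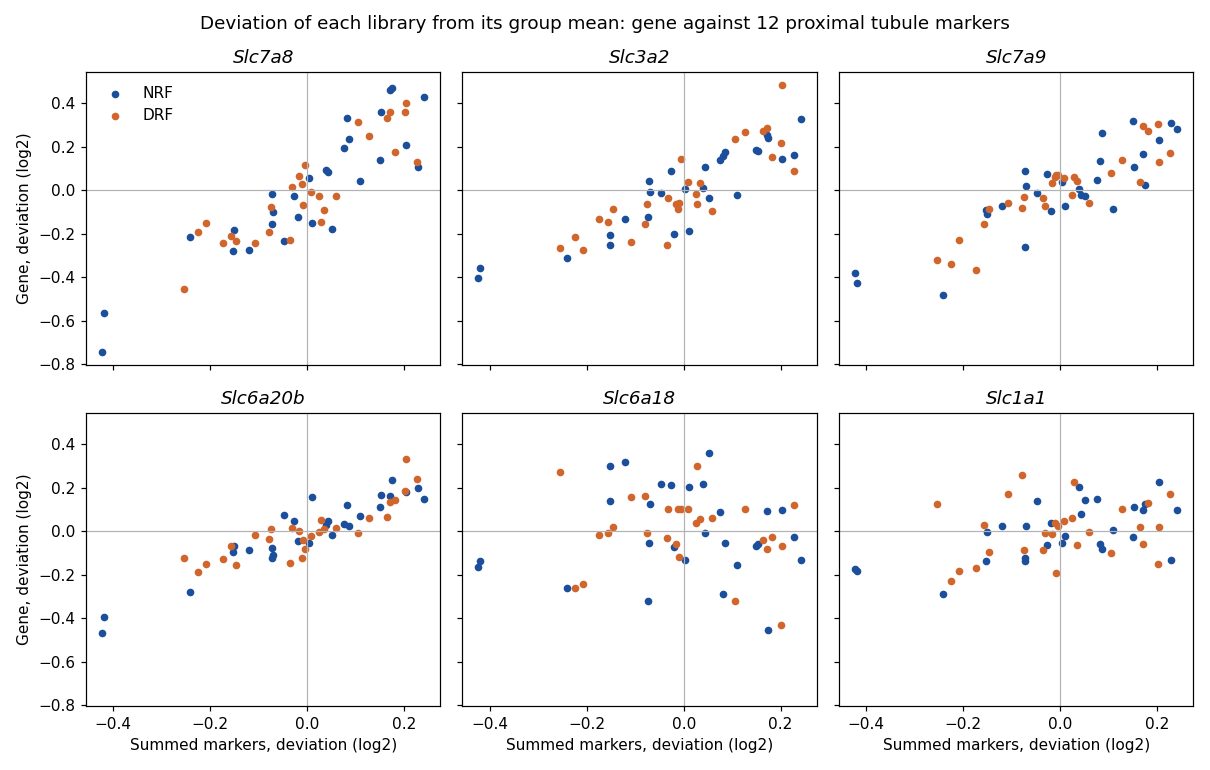
Deviation of each library from its group mean (log2(CPM + 1), y axis) for Slc7a8, Slc3a2, Slc7a9, Slc6a20b, Slc6a18 and Slc1a1 against the deviation of the summed proximal tubule markers (log2, x axis), with a point for each of 56 libraries under NRF (blue) and DRF (orange). Grey lines mark no deviation. Slc6a20b, with r = 0.91, follows the marker sum most closely and Slc6a18 (r = -0.07) does not follow it.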

How the data were processed

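Libraries of poly(A) RNA from 56 kidneys were read from both ends on a BGIseq500, per the labels. The submitters' processing notes name HISAT2, Bowtie2 and RSEM with GRCm38.p6 (mm10), without roles or versions. The authors deposited 1 table of values named TPM, treated here as a score: within a gene they scale with log2(CPM + 1) divided by a gene length, and column sums were 999145 to 999753. The design had assumed another unit, so the count tests planned as alternatives could not be used. Reads were recovered by finding, for each library, the effective size at which values of genes of annotated length (GENCODE M21) became whole, which gave 98.98% whole values in 14328 genes. Of 17027 genes, 16853 were recovered. For Slc6a20b, Slc7a7 and Slc3a2 the values came out in hundredths of a read, for Slc6a18 in 66.1% of libraries whole, and for Slc1a1 with a length of 6170 bases found by search. For Slc3a1 a length of 2271 bases was assumed, at which 8.9% of its values were whole. That length scales its log2(CPM + 1), and with it its CPM, RPKM, amplitudes, differences and ratio to Slc7a9. Slc3a1 overlaps an antisense gene, and strand was not given in the sources used here.

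CPM used the effective library sizes. Genes whose mean TPM reached 1 were tested on log2(CPM + 1) with limma 3.58.1 in R 4.3.3 (mean-variance trend, Benjamini-Hochberg over 13351 genes): 24-h cosines by regimen (28 libraries each, ZT24 set at the phase of ZT0), their interaction with regimen, an added 12-h component, and contrasts of a 14-group fit for mesor, each ZT, meal-matched ZT and ZT24 against ZT0. Fold changes on this scale understate those of low genes. Ratios and correlations used permutation tests of 100000 resamples, 2-sided, in Python 3.11.15 with numpy 2.4.6. The recovery of reads and the limma fits were tested on simulated data, and the permutation tests were not. In the simulation for limma the noise was independent between genes, unlike the shared deviations of the carriers. Genes named beside the carriers were, by rule, the 3 most alike by r (fewer are printed for some) and the calls of the listed pathway genes. From the list of partners and peptidases 1 gene is not reported here. The members and lists were chosen with earlier results of these data known. Depth was 25.4 to 28.1 M recovered reads a library. Replicate libraries of a group correlated across genes at 0.9698 to 0.9959 (84 pairs), and no pair held the same values. Over 27 same-number pairs, deviations correlated at a median of 0.145 (-0.429 to 0.688), with 14 over 0.1, so replicate numbers were not taken to pair mice. Alternatives were other scalings, the deposited values, a pseudocount of 0.1, other filters, a replicate block, and leaving out each replicate or ZT24.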

Additional observations from a re-analysis of the deposited data

Results flagged for a closer look

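In 5 of 126 groups of 4 mice, 1 mouse stood apart from the others by Dixon's gap ratio, and chance flags about 1 in 20 groups. Slc6a19 at NRF ZT0 was 257 CPM in replicate 3 against 169, 169 and 183 CPM (ratio 0.843). Slc6a20b at NRF ZT8 was 164 CPM in replicate 1, the library lowest in proximal tubule markers, against 251, 252 and 253 CPM (ratio 0.97). At DRF ZT24, replicate 4 was high for Slc6a20b (297 against 213, 216 and 224 CPM, ratio 0.865) and for Slc3a1 (625 against 502, 514 and 521 CPM, ratio 0.848), and replicate 1 was low for Slc1a1 (341 against 367, 369 and 372 CPM, ratio 0.857).

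The 24-h cosine differed between DRF and NRF, by the limma interaction test, for Slc7a9 (adjusted p = 5.92e-05), Slc7a8 (0.00336), Slc6a19 (0.0139), Slc7a7 (0.0148) and Slc3a2 (0.0298). Among the ratios it differed, by permutation tests of regimen labels within time points, for Slc7a9 to Slc3a1 (adjusted p = 4e-05), Slc7a8 to Slc3a2 (6e-05), Slc7a7 to Slc3a2 (0.00167) and Slc6a19 to Cltrn (0.00167).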

How the results depend on the processing

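The edgeR and DESeq2 fits were not run, because the deposited values are not counts. The fits with voom weights, without the 7 libraries high in fat markers, without the 2 libraries lowest in proximal tubule markers, without the NRF ZT24 library whose number matches no sample label, with proximal tubule markers as a covariate and with another Slc3a1 length were chosen after seeing the data. Over 59 single values, no called difference between regimens changed sign. The amplitudes, F values and shares of variance among the 59 have no sign that could change. Leaving out 1 replicate number removed 49 calls and added 2, other settings removed 17 and added 8. Differences at the same ZT or matched meal time entered these values only if called in the main fit. Calls of such differences that an alternative gained are therefore not in the numbers added, and most of those came with the covariate. Leaving out a replicate gave 5 to 6 rhythmic carriers under NRF, 1 to 3 under DRF, 2 to 5 interactions, 0 mesor calls, 2 to 7 calls at the same ZT, 3 to 11 at matched meal time, 0 for the 12-h component under NRF and 1 to 2 under DRF, 0 between ZT24 and ZT0, and 5 to 6 ratio calls. With the covariate the counts were 6 under DRF (46.1% of all genes), 23 at the same ZT and 23 at matched meal time (means of 25.7% and 25.3%). In that fit the 12-h component passed for 1 carrier under NRF (3.66% of all genes) and 4 under DRF (36.8%). Meal-matched calls were 6 in the deposited values and 17 without the 2 libraries lowest in proximal tubule markers, and the 12-h component under DRF had 4 without the fat-rich libraries. The cause was not tested. With a replicate block, the 24-h rhythm under DRF had 2 calls (Slc6a20b was lost), the interaction 5 and the same-ZT comparison 8 (Slc6a18 at ZT12 was added). The share of all genes was not computed for the replicate block, the deposited values or the fits that left out a replicate number. Their counts are therefore not read as particular to the carriers. Depth did not limit the members, which had at least 2460 reads in a library. Reads that Slc6a20a and Slc6a20b share could not be separated.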
